A study of Mus musculus with 53 samples.

Results

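The immediate genes of T-cell receptor signalling are the genes a T cell switches on first when its receptor is engaged, and 9 genes grouped under that name were followed here across tumours of mice that develop T-cell lymphoma. They were Egr1, Egr2, Egr3, Nr4a1, Nr4a3, Cd69, Cd5, Fos and Junb, chosen by name, and every probe set that the array's gene table gives to 1 of these symbols was taken. The table gave 10 probe sets to 8 of the 9 genes, with 2 each for Egr2 and Nr4a3, among 12393 genes in all. Cd69 was not analysed here. The remaining genes entered the tests if their intensity was above the array's median on at least 3 of the 53 arrays: 9156 genes passed, 7 of the 8 among them, and Egr2 did not.

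Each array had measured the RNA of T-cell lymphoblasts from 1 tumour sample of an untreated C57BL/6 mouse; the labels give no age and do not say that the samples of a background came from separate animals, so p-values measure the spread among samples alone, and part of it may be technical. Knockout backgrounds were E2A knock out (2 arrays), rag E2A knock out (2), p53 knock out (3) and Cdkn2a knock out with retroviral insertional mutagenesis (9), whose sample titles name different genes (myc, ras, a myc and ras mix, myb, and pim1 with ccnd3 for replicate 8 alone). Transgenic backgrounds were beta-catenin (3), LMO1 (3), olig1-LMO1 (3, olig2 in the sample titles), Nup98HoxD13 (3), Pokemon (2), Tal1 (2), Tal1-LMO2 (3), ThPOK (3) and TLX1 (6). The other two were Ikaros Plastic mice (3), named for a mutant Ikaros allele, and TLX1 transgenic mice crossed to RUNX heterozygotes (6, here called crossed tumours). TLX1 tumours are labelled TLX1 positive and all the rest TLX1 negative, the crossed tumours included. Both rag E2A and E2A tumours lack E2A by their labels, so that by these labels they differ in the rag part of the genotype alone. The sample titles of both backgrounds name E2A only, in a single run of numbers. The labels do not say which Rag gene was disrupted or which promoters drive the transgenes.

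An engaged T-cell receptor activates kinases, calcium entry and the Ras pathway within minutes, and these switch on a first wave of genes whose transcription needs no new protein. The wave includes transcription factors of the Egr, Nr4a and AP-1 families, and the surface protein Cd69. Cd5, another surface protein, was followed with them by name and is not placed in that wave here. In the thymus the pre-T-cell receptor and the mature receptor both drive these genes during selection, and Cd5 and Nr4a1 are widely read as gauges of signal strength. The Rag recombinase assembles the receptor genes, so cells without it make no rearranged receptor chain.

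The start of several of these genes is shown here because signal-responsive promoters of this class are known for short elements that bind factors waiting in the cell before the signal arrives. From RefSeq's promoter table (GRCm38.p6), which gives 250 bases before to 50 bases after each start, 10 windows for 6 of the 9 genes were used. They were those of Cd5, Fos, Junb, Nr4a1, Nr4a3 and, with 5 starts, Egr2. No window of Egr1 was used here, so the counts below leave that gene out. Capitals mark TGACG on either strand, the core of the element bound by CREB and ATF factors. Each window is printed 5' to 3' on the strand of its gene: Nr4a1 at chr15:101266596-101266895 on the plus strand, Nr4a3 at chr4:48045055-48045354 (plus), Fos at chr12:85473640-85473939 (plus), Junb at chr8:84978699-84978998 (minus) and Cd5 at chr19:10738925-10739224 (minus).
Nr4a1: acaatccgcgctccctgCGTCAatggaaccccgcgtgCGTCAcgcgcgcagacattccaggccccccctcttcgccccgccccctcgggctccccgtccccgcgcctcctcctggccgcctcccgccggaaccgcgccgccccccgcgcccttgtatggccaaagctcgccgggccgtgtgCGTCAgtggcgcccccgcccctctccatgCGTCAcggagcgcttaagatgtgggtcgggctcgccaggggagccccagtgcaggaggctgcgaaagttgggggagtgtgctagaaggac
Nr4a3: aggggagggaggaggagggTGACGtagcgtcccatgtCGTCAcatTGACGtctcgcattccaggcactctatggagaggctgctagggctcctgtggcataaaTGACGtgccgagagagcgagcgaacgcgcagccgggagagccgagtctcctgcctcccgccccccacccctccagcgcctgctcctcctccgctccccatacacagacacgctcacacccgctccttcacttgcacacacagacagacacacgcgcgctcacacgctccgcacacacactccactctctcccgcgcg
Fos: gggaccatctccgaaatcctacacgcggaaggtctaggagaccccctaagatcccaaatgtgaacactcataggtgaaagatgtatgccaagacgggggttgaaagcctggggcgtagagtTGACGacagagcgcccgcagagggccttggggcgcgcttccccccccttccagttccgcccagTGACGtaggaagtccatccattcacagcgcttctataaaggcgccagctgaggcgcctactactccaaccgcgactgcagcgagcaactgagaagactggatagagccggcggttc
Junb: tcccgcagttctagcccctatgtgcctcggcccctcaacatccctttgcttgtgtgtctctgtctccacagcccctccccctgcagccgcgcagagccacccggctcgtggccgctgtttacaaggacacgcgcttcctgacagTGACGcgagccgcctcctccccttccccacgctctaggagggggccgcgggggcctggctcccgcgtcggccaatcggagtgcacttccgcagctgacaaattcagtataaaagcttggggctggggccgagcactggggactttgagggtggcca
Cd5: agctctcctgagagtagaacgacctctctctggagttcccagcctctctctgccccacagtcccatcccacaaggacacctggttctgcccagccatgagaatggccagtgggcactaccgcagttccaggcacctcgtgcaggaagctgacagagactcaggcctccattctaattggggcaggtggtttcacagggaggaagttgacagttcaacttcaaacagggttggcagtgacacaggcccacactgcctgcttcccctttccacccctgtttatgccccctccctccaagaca
Nr4a1 and Nr4a3 held 4 copies each, Fos 2, Junb 1 and Cd5 0, and 3 of the 5 Egr2 windows held 2. Of all 32851 windows of this length in the table, 20.8% held the element at least once and 1.03% held 3 or more. The CArG box bound by serum response factor lay in 4 of the 5 Egr2 windows and in 1.63% of all windows. The last 3 Egr2 windows (starts 67537619, 67537620 and 67537680 on chromosome 10) overlap almost fully, so both counts for Egr2 include the same copies more than once. Of the AP-1 element TGANTCA, searched on both strands like the others (no copy of one motif can contain another), none of the 10 windows used had a copy and 7.81% of all windows did. These matches are letters in a window and carry no measurement of binding.

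Array medians ranged from 377 to 590 intensity units. Clustering of the arrays on 27 control probe sets for Bacillus spike-in transcripts gave a set of 38 arrays, a set of 8 (the 6 TLX1 tumours with p53 replicates 1 and 2), a set of 6 (the crossed tumours) and Tal1-LMO2 replicate 2 alone. Clustering on all 45 bacterial and phage controls put all E2A, rag E2A, Tal1 and Tal1-LMO2 arrays in a set of 9 of their own, and Ikaros replicates 1 and 3 with 1 olig1-LMO1 array in a set of 3. What these sets stand for is not recorded in the labels. Markers of T-lineage cells were well represented: in rag E2A tumours all 10 measured markers were above the array median on both arrays. In bulk tumours, fewer cells of a type and less RNA per cell cannot be told apart.

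**Figure D1:**
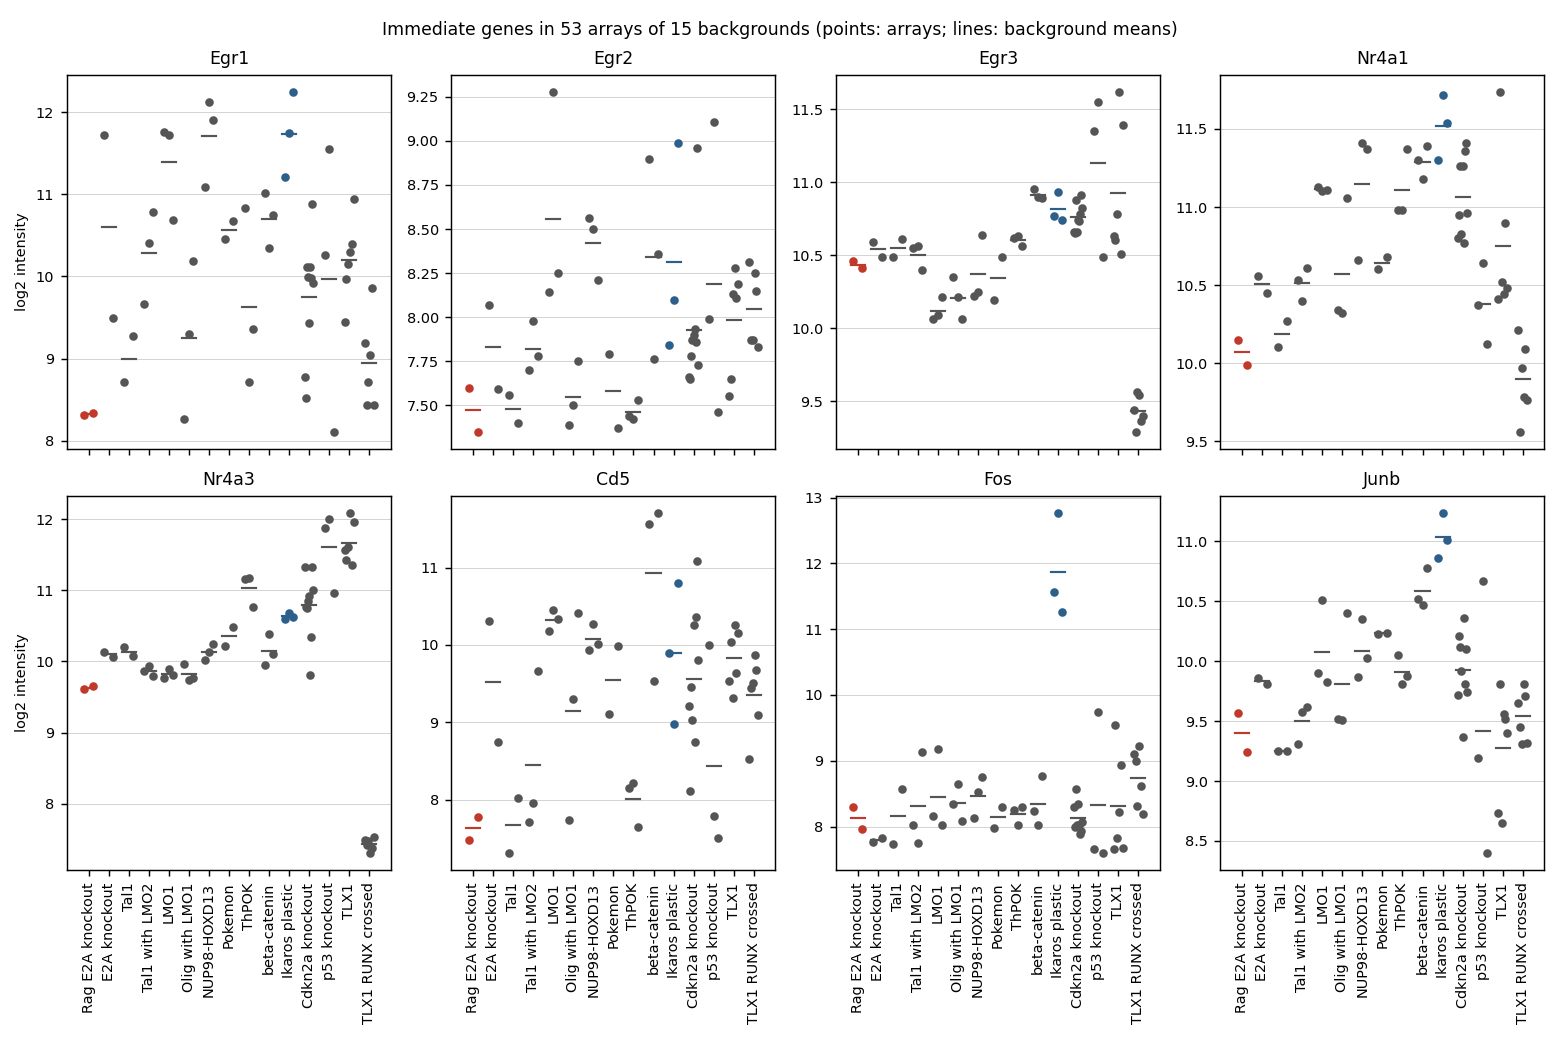
Log2 intensity (vertical axes) of the 8 measured genes on 53 arrays, by genetic background (horizontal axis), using for each gene the probe set of highest mean; points are arrays and short lines background means, with rag E2A in red and Ikaros Plastic in blue. The 2 rag E2A arrays lie near the bottom for Egr1 (8.31 and 8.34) and Cd5 (7.48 and 7.78), and the 3 Ikaros Plastic arrays stand above all others for Fos (11.26 to 12.77) and Junb (10.86 to 11.24).

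Rag E2A tumours had the lowest background mean of 15 for Egr1 and for Cd5, and Egr1 alone passed the test against the other backgrounds. Egr1, a zinc-finger transcription factor induced through the Ras pathway, read 8.31 and 8.34 on the log2 scale in these tumours. The other 51 arrays ran from 8.11 over a median of 10.15 to 12.25, and 2 of them, p53 replicate 3 (8.11) and olig1-LMO1 replicate 1 (8.27), lay below both. Against the mean of the other 14 background means Egr1 was lower by -1.94 ± 0.54 (SE), a 3.85-fold difference with an adjusted p of 0.0445 in limma (Benjamini-Hochberg over 9156 genes, as for every adjusted p here unless stated). Of the 7 tested genes 1 was called lower and 0 higher in this comparison, where 1.2% of all genes were called lower and 0.71% higher. That split of the all-gene calls moved with the scaling, from 65 higher and 110 lower to 152 and 78 when arrays were centred on their medians and to 45 and 41 after quantile normalization.

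The Egr1 call sits at the edge of the threshold. It was lost with quantile normalization (-1.83, adjusted p = 0.0815) and when array set entered as a block (-1.68, 0.0776). That block told the set of 8 from the set of 38, which holds both rag E2A arrays, and left out the other arrays. It therefore did not compare the rag E2A arrays within a narrower set, and its TLX1 value rests on p53 replicate 3 (Egr1 8.11). The call was kept within the 38 arrays (-1.90, 0.025). It was lost among only the 9 arrays of the set that holds the rag E2A tumours (-1.64, 0.33). Against backgrounds outside that set of 9, the rag E2A genotype and the set cannot be told apart.

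Cd5, a surface glycoprotein that dampens receptor signalling, read 7.48 and 7.78 in rag E2A tumours, and the other 51 arrays ran from 7.31 to 11.71 with a median of 9.54. One array lay below both, Tal1 replicate 1 at 7.31. The difference of -1.71 ± 0.56 missed the threshold (adjusted p = 0.0963). The 2 nuclear receptor genes also missed it: Nr4a1, at 10.15 and 9.99, differed by -0.69 ± 0.21 (adjusted p = 0.0698), and Nr4a3, at 9.61 and 9.65, by -0.62 ± 0.21 (adjusted p = 0.0993). Within the 38 arrays Nr4a1 (-0.75, adjusted p = 0.0107) and Nr4a3 (-0.69, 0.0414) did pass, which made 3 of the 7 genes lower there. Within the set of 9 neither passed (-0.33, adjusted p = 0.33, and -0.41, 0.317). Of all genes too, far more were called lower within the 38 arrays than over all arrays, as counted in the closing section. The fit within the 38 arrays also added lower calls in Tal1, olig1-LMO1 and LMO1 tumours, given below.

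The AP-1 genes and Egr3 lay closer to the rest. Junb read 9.57 and 9.24 (-0.49 ± 0.28, adjusted p = 0.338) and Fos 8.29 and 7.97 (-0.41 ± 0.39, adjusted p = 0.584). Egr3 read 10.46 and 10.41 (-0.08 ± 0.17, adjusted p = 0.836), with 5 of the other 14 background means below it. Egr2, which did not pass the filter, read 7.6 and 7.35 by one probe set and 7.1 and 7.01 by its other. The median difference of the 7 genes was -0.625, beside -0.035 over all 9156 genes. It was nearly as low in Tal1 tumours (-0.567, beside 0.011), which share the set of 9, and lower in crossed tumours (-0.881, beside -0.124). At the other end it reached 0.861 in Ikaros Plastic tumours.

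Set against E2A tumours, with which they share the E2A knockout, rag E2A tumours had lower means for 6 of the 7 genes, Egr3 the least (-0.10 ± 0.24). The median difference of the 7 genes was -0.434, beside -0.065 for all genes, which became -0.001 when arrays were centred. Limma called 0 genes of any kind in this comparison of 2 arrays with 2 (0% higher and 0% lower, 436 genes at an unadjusted p under 0.05). The E2A arrays read 11.72 and 9.49 for Egr1 and 10.31 and 8.74 for Cd5, so both lay above both rag E2A arrays, with a spread between them of over 1 log2 unit. Egr1 differed by -2.28 ± 0.74 (95% interval -3.78 to -0.78, adjusted p = 0.691) and Cd5 by -1.90 ± 0.78 (-3.47 to -0.32, 0.991). Fos was the exception, at 0.34 ± 0.53 (-0.74 to 1.41, adjusted p = 1). These intervals are unadjusted. In simulated data of this design limma recovered 95.5% of genes changed by 2 log2 units and 63% of those changed by 1. That simulation drew independent noise at each gene's spread, changed 200 genes and held no other difference among backgrounds. Its shares are over genes of every spread, so they give no power for Egr1 or Cd5 (SD within backgrounds 0.77 and 0.81). The lack of calls cannot be read as a lack of change.

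**Figure D2:**
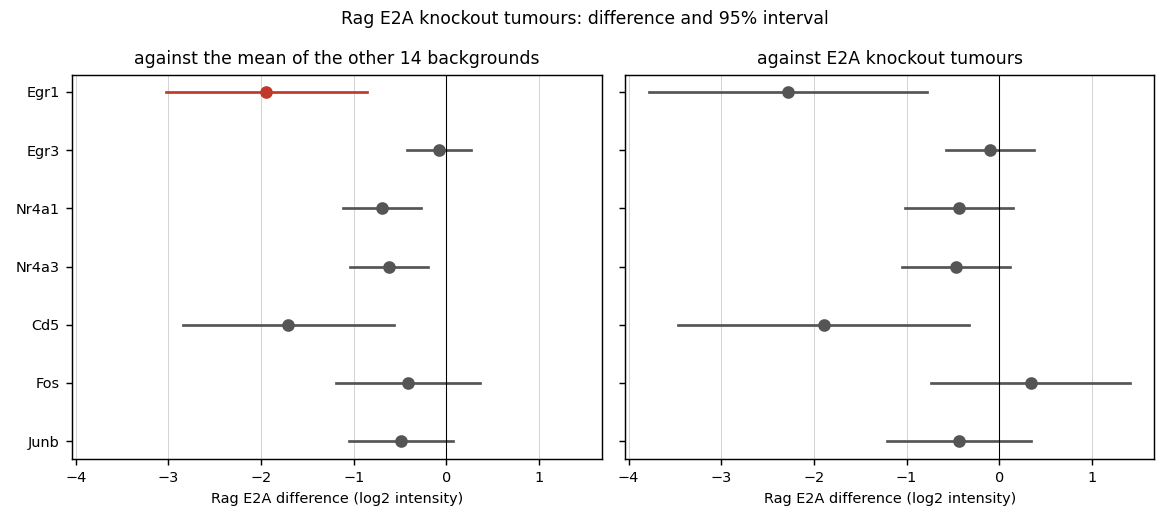
Difference in log2 intensity (horizontal axes) of the rag E2A tumours from the mean of the other 14 backgrounds (left) and from E2A tumours (right) for the 7 tested genes (vertical axis); points are fitted differences, lines their unadjusted 95% intervals and red marks an adjusted p under 0.05. Egr1 and Cd5 lie furthest below 0 in both panels, at -1.94 and -1.71 on the left and -2.28 and -1.90 on the right.

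The genes named by the genotype labels were read in the same arrays. Rag1 read 12.15 and 11.89 and Rag2 9.32 and 9.16 in rag E2A tumours, neither below the medians of all 53 arrays (11.78 and 9.1). The labels do not say which part of which gene was removed, so these probe sets check nothing about the genotype. Tcf3, which encodes the E2A proteins, read 8.51 and 8.39 by one probe set and 8.02 and 7.92 by another in rag E2A tumours, beside 8.04 and 8.1, and 7.64 and 7.67, in E2A tumours. The p-values of these 2 probe sets passed in rag E2A tumours (-1.46 and -1.39, adjusted p = 0.00406 and 0.00104 over all probe sets), while the third, at 10.04 and 9.79, did not (-0.72, adjusted p = 0.0628 over genes).

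Other genes of the pathway were taken from lists. Of 26 tested other induced genes, 1 was lower and 0 higher in rag E2A tumours: Id3, an inhibitor of E proteins and itself a target of Egr factors (-2.25 ± 0.58, adjusted p = 0.0323). The list's median was -0.20, beside -0.035 for all genes. That of 11 heat-shock genes, of which 0 were called, was as low (-0.23). Of 18 feedback genes and 30 genes of the receptor and its proximal signalling, 0 were called in either direction (medians -0.08 and 0.05). Of other cell types' markers, 1 of 14 myeloid genes was lower, Csf1r (-0.86, adjusted p = 0.0201). Of 11 stromal, endothelial and epithelial genes 1 was lower, Dcn (-1.64, adjusted p = 0.0351). The medians of both marker lists, -0.718 and -0.64, were as low as that of the 7 immediate genes (-0.625). Against E2A tumours the medians of both lists were 0.202 and -0.06, beside -0.065 for all genes. Of 10 T-lineage genes 0 were called against the other backgrounds (median 0.185). The summed myeloid level was 13.37 and 13.56 in rag E2A tumours (12.81 to 16.49 over all arrays) and 12.88 to 13.02 in E2A tumours. The part of these markers in the result was not tested.

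Ikaros Plastic tumours had the highest level of the AP-1 genes. Fos, which pairs with Jun proteins to form AP-1, read 11.56, 12.77 and 11.26 in these 3 tumours. It read 9.74 or less on the other 50 arrays, the highest being p53 replicate 2, so the groups did not overlap. Fos rose by 3.59 ± 0.32, a 12-fold difference (adjusted p = 1.08e-10). Elsewhere Fos was low: it was above the array median on 10 of the 53 arrays.

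Junb, another AP-1 subunit, read 10.86, 11.24 and 11.01 in Ikaros Plastic tumours, above the nearest other array, beta-catenin replicate 3 at 10.78. It rose by 1.26 ± 0.23 (adjusted p = 5.26e-05). Egr1 read 11.21, 11.75 and 12.25 there and rose by 1.71 ± 0.44 (adjusted p = 0.00292), at levels that overlapped those of Nup98HoxD13 and LMO1 tumours. Nr4a1 read 11.3, 11.72 and 11.54 and rose by 0.86 ± 0.17 (adjusted p = 0.000188). Nr4a3 rose by 0.45 ± 0.17 (adjusted p = 0.0408), a call lost when any of the 3 tumours was left out (adjusted p from 0.0849 to 0.196), and its other probe set showed 0.13 ± 0.28. Cd5 (0.72) and Egr3 (0.33) did not pass. That made 5 of 7 genes higher, where 20.8% of all genes were higher and 11.4% lower. The genes' median was 0.86, beside 0.04 for all genes.

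Other lists are read against the 20.8% of all genes that were higher in these tumours. Of the 26 other induced genes 13 rose and 1 fell, with a median of 0.58 beside 0.04 for all genes. Among those that rose, named after their values were seen, were Zfp36, which destabilises cytokine messages (1.75 ± 0.22), Irf4 (1.77 ± 0.37), Jun, the AP-1 partner of Fos (1.17 ± 0.15), Ier2 (1.17 ± 0.25) and Nr4a2 (0.78 ± 0.11). Bcl2l11, which encodes the death factor Bim, was the 1 that fell (-1.06 ± 0.33). Of 18 feedback genes 6 rose, among them the phosphatase gene Dusp1 (1.43 ± 0.34) and Nab2, the corepressor of Egr proteins (0.87 ± 0.31), and 2 fell (median 0.15). Of 30 genes of the receptor and its proximal signalling 6 rose and 2 fell (median 0.06), a share of risers near that of all genes. Of markers of other cells and of stress, 5 of 11 stromal, endothelial and epithelial genes (median 0.92), 4 of 14 myeloid genes (0.41) and 3 of 11 heat-shock genes (0.16) rose, and 0 of these fell. The summed stromal, endothelial and epithelial level was 13.64 to 15.05 in Ikaros Plastic tumours (11.86 to 15.45 over all arrays), the summed myeloid level 14.59 to 15.11 and the summed heat-shock level 15.33 to 15.64 (14.79 to 15.84 over all arrays). Of these markers 1 myeloid and 2 stromal genes were above the array median on none of the 3 arrays. Their part in the rise of Fos and Junb was not tested. Within the 38 arrays Fos (3.67, adjusted p = 1.55e-11) and Junb (1.29, 2.6e-06) rose as much. In that fit Nr4a3 missed the threshold (0.40, adjusted p = 0.0622) and Egr3 passed it (0.33, 0.00154).

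In beta-catenin tumours 4 of 7 genes rose, where 23.1% of all genes did and 13% fell. Cd5 read 11.56, 9.54 and 11.71, the highest background mean (1.83 ± 0.47, adjusted p = 0.00179). Replicate 2 lay with the other backgrounds, and without replicate 3 the call was lost (1.45, adjusted p = 0.0559). Junb rose by 0.78 ± 0.23 (adjusted p = 0.00686; 0.0717 without replicate 3), Nr4a1 by 0.61 ± 0.17 (0.00486) and Egr3 by 0.44 ± 0.14 (0.0136; 0.0526 to 0.0685 without any 1 of the 3). Fos, at 8.23, 8.02 and 8.77, did not pass (-0.19 ± 0.32). Of 6 tested B-lineage markers 5 were higher there and 0 lower, with a median of 0.84 beside 0.02 for all genes. Their summed level was 12.22 to 12.95, where all arrays ran from 11.14 to 12.95. The part of these markers in the calls, including that of Cd5, which some B cells also carry, was not tested.

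Egr1 was also high in Nup98HoxD13 tumours, which read 11.09, 12.12 and 11.9 (1.68 ± 0.44, adjusted p = 0.0303), and in LMO1 tumours, which read 11.76, 11.72 and 10.69 (1.34 ± 0.44, 0.0428). Both calls were lost when any of the 3 tumours concerned was left out (adjusted p from 0.072 to 0.305 and from 0.0563 to 0.224). No other of the 7 genes was called higher in these 2 backgrounds, where 0.732% and 2.83% of all genes were higher and 1.39% and 8.33% lower. Egr3 was lower in LMO1 tumours (-0.42 ± 0.14, adjusted p = 0.0462), a call that 25 of the 53 leave-outs removed.

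**Figure D3:**
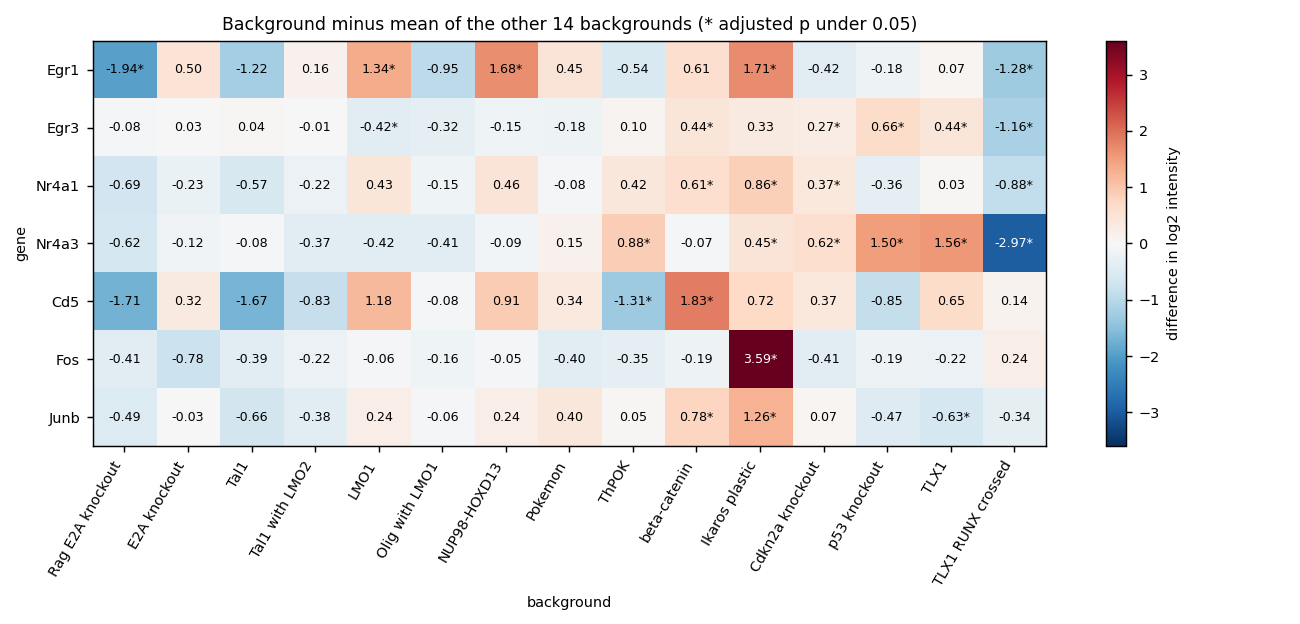
Difference in log2 intensity of each background (horizontal axis) from the mean of the other 14, for the 7 tested genes (vertical axis); red is higher, blue lower, each cell gives the difference and an asterisk marks an adjusted p under 0.05. Fos is called in Ikaros Plastic tumours only (3.59), while Nr4a3 is called in 6 backgrounds, from -2.97 in crossed to 1.56 in TLX1 tumours.

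Nr4a3, an orphan nuclear receptor, had background means from 7.44, in the crossed tumours, to 11.66. It read 7.31 to 7.54 (median 7.45) in the 6 crossed tumours and 9.61 or more on every other array, with no overlap. It fell by 2.97 ± 0.13 there on the log2 scale (adjusted p = 3.92e-22), and its other probe set, with 6.26 to 6.64 against 7.31 or more, fell by 1.60 ± 0.21. Egr3 showed the same separation, at 9.29 to 9.56 (median 9.42) against 10.06 or more (-1.16 ± 0.10, adjusted p = 5.64e-13). Egr1 (-1.28 ± 0.33, adjusted p = 0.000735) and Nr4a1 (-0.88 ± 0.13, 7.98e-08) fell as well, with values that overlapped other backgrounds. Cd5, Fos and Junb did not pass (0.14, 0.24 and -0.34), though Fos did, as higher, once arrays were centred (0.55, adjusted p = 0.031). These 4 of 7 lower genes stand beside 41.3% of all genes lower and 22.3% higher. Markers of other cells differed too: 7 of 14 myeloid genes were higher and 1 lower (median 0.57, beside -0.124 for all genes), 4 of 11 stromal, endothelial and epithelial genes were higher and 1 lower, and 4 of 6 B-lineage and 3 of 10 T-lineage genes were lower and 0 higher. The part of these markers was not tested. All 6 crossed arrays form an array set of their own, so that genotype and set cannot be told apart. They also had the lowest array medians, at 8.56 to 8.66 on the log2 scale against 8.79 or more on every other array. The part of these low medians in the calls was not tested beyond the centring of arrays.

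At the other end, Nr4a3 read 11.35 to 12.09 (median 11.59) in TLX1 tumours and 11.88, 12 and 10.96 in p53 tumours, which overlapped. It rose by 1.56 ± 0.13 (adjusted p = 1.53e-13) and 1.50 ± 0.17 (4.66e-09). The 2 p53 arrays above 11.8 are the 2 that cluster with the TLX1 arrays on the controls. The beta-actin ratio, the log2 signal near the 3' end over that near the 5' end of the message, which rises as RNA degrades, was also high on these arrays. Its median was 1.21 in TLX1 tumours against 0.268 over all arrays, and it was 1.53 and 1.09 in p53 replicates 1 and 2 but 0.274 in replicate 3. With this ratio as a covariate Nr4a3 differed by 1.47 (adjusted p = 1.16e-06) in TLX1 and 1.46 (2.92e-07) in p53 tumours. When array set entered as a block, the TLX1 difference was 0.43 (adjusted p = 0.521) and that of p53 tumours 0.72 (0.0799). Egr3 rose by 0.44 ± 0.10 and 0.66 ± 0.14 in the same 2 backgrounds, where the covariate left 0.31 (adjusted p = 0.201) and 0.59 (0.00322), and the block turned the TLX1 value to -0.55 (adjusted p = 0.244) and took the p53 value to 0.02 (0.967). Junb read 8.65 to 9.81 (median 9.46) in TLX1 tumours and fell (-0.63 ± 0.17, adjusted p = 0.00219), with -2.11 (0.00689) under the block. The blocked TLX1 values rest on p53, the only background with arrays in both sets, and so on p53 replicate 3 alone, which had the lowest Junb of all 53 arrays (8.4). That gave 2 of 7 genes higher and 1 lower in TLX1 tumours, beside 27.8% and 19.6% of all genes, and 2 higher and 0 lower in p53 tumours, beside 22.9% and 21.3%. In p53 tumours Nr4a1 and Junb were called lower once arrays were centred (-0.43, adjusted p = 0.0374, and -0.54, 0.0446), Nr4a1 also after quantile normalization (-0.43, 0.0418) and Junb also under the block (-1.40, 0.0069). Of 10 T-lineage genes 7 were lower in p53 tumours (median -1.08) and 6 of 11 stromal, endothelial and epithelial genes higher (0.80), with 0 called in the opposite direction. In TLX1 tumours 1 T-lineage and 4 stromal, endothelial and epithelial genes were higher and 0 lower. The part of these markers in the calls was not tested.

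In the 9 Cdkn2a tumours 3 of 7 genes were higher, where 30% of all genes were higher and 18.3% lower: Nr4a3 (9.81 to 11.33, median 10.85; 0.62 ± 0.11, adjusted p = 6.46e-06), Nr4a1 (0.37 ± 0.11, 0.00376) and Egr3 (0.27 ± 0.09, 0.0102). The last 2 missed the threshold once arrays were centred on their medians (0.22, adjusted p = 0.0708, and 0.12, 0.18), and Fos was then called lower (-0.56, 0.0146), as it was after quantile normalization (-0.56, 0.016). Of 10 T-lineage genes 5 were lower in these tumours and of 14 myeloid genes 6 were higher, with 0 in the opposite direction; their part was not tested. ThPOK tumours were higher for Nr4a3 (11.16, 11.18 and 10.76; 0.88 ± 0.17, adjusted p = 0.000182) and lower for Cd5 (8.15, 8.21 and 7.65; -1.31 ± 0.47, adjusted p = 0.0322), where 17.6% of all genes were higher and 9.33% lower. The Cd5 call was lost without any 1 of the 3 tumours (adjusted p from 0.0865 to 0.168). In E2A, olig1-LMO1, Pokemon, Tal1 and Tal1-LMO2 tumours limma called 0 of the 7 genes, with 1.61%, 2.72%, 0.797%, 2.8% and 1.77% of all genes higher and 1.17%, 6.86%, 1.41%, 0.83% and 2.73% lower. Tal1 tumours read 7.31 and 8.02 for Cd5 (-1.67) and 8.72 and 9.28 for Egr1 (-1.22).

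Over all 15 backgrounds, 19 pairs of gene and background were called higher and 8 lower among the 7 genes, beside 11.9% and 10.5% of all such pairs over the 9156 genes. The contrasts share arrays, so these pairs are not independent. All 7 genes differed among backgrounds by the moderated F test, as did 89.2% of all genes. Centring each array on its median shifted the median difference of all genes from -0.124 to 0.184 in crossed, from 0.04 to -0.134 in Ikaros Plastic, from 0.024 to -0.166 in beta-catenin and from 0.046 to -0.102 in Cdkn2a tumours. The share of all called genes that were higher went with it. It was 35% as deposited, 62.4% centred and 44.5% after quantile normalization in crossed tumours, 64.5%, 34% and 49.8% in Ikaros Plastic and 64%, 34.8% and 53.3% in beta-catenin tumours. In Cdkn2a tumours it was 62.1%, 35.7% and 54.5%, in TLX1 tumours 58.7%, 44.4% and 50.3%, in ThPOK tumours 65.4%, 42.3% and 61.1% and in LMO1 tumours 25.3%, 63.3% and 40.8%. In olig1-LMO1 tumours it was 28.4%, 55.8% and 39.9% and in Tal1-LMO2 tumours 39.3%, 63.4% and 48.4%. The called differences of the 7 genes kept their direction under both scalings. Nr4a1 became called higher in LMO1 tumours when centred (0.54, adjusted p = 0.0392) and in ThPOK tumours after quantile normalization (0.47, 0.0393).

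Neighbours in the order of background means mostly overlapped in their arrays: of 14 neighbouring pairs, 13 overlapped for Egr1, 14 for Cd5 and Nr4a1, 12 for Egr3, Fos and Junb and 10 for Nr4a3. The highest background mean was that of Ikaros Plastic tumours for Egr1 (11.74), Nr4a1 (11.52), Fos (11.86) and Junb (11.04), that of TLX1 tumours for Nr4a3, that of p53 tumours for Egr3 (11.13) and that of beta-catenin tumours for Cd5 (10.94).

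Egr2, the family member that marks strong or sustained receptor signals, was dim on this array. Its brighter probe set read 7.35 to 9.28 and was above the array median on 2 arrays, LMO1 replicate 2 (9.28) and p53 replicate 2 (9.11). The LMO1 tumours had its highest background mean, at 8.14, 9.28 and 8.25, but its 2 probe sets ranked the crossed tumours apart: they differed from the other backgrounds by 0.66 ± 0.15 by the dimmer and 0.12 ± 0.17 by the brighter probe set. Egr2 entered no count above.

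Tumours of 1 background could differ as much as backgrounds did. In olig1-LMO1 tumours Egr1 read 8.27, 9.3 and 10.19 and Cd5 7.74, 9.3 and 10.41. In p53 tumours Egr1 read 10.26, 11.55 and 8.11 and Junb 9.19, 10.67 and 8.4. The SD within backgrounds, pooled over all 15, was 0.77 for Egr1 and 0.81 for Cd5, against 0.24 for Egr3 and 0.29 for Nr4a1 and Nr4a3.

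Egr1 tracked 1 gene closely. Over the 38 arrays of the largest set, Nab2, a corepressor that Egr proteins induce and that then binds and restrains them, had a Pearson r of 0.913 with Egr1 (Spearman rho 0.929). It was the only tested gene above 0.8, and r was 0.831 after each background's mean was removed. Nab2 was lowest in rag E2A tumours too, at 7.72 and 7.96 (-1.12 ± 0.37 against the other backgrounds, adjusted p = 0.1). In E2A tumours Nab2 read 10.06 and 8.21, where Egr1 read 11.72 and 9.49. Hdac5 came second for Egr1 (0.76). For Cd5 the nearest gene was Cd6, a related surface receptor (r = 0.824, rho 0.798, and 0.882 within backgrounds), again the only one above 0.8, followed by Hdac5 (0.763). These correlations are over arrays that share background and normalization, and are given as descriptions.

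Egr3 and Nr4a3 each tracked many genes. Egr3 correlated above 0.8 with 887 genes, led by Ephb3 (0.956) and Gfra3 (0.944), and its r with the median of the array was 0.897, over an SD of 0.26. Nr4a3 did so with 341 genes, led by Tmem38b (0.974) and Kif1b (0.973), and its r with the array median was 0.723. The r with the array median was 0.604 for Nr4a1, 0.432 for Junb, 0.288 for Fos, 0.252 for Cd5 and 0.098 for Egr1. The part of the array median in the differences of these genes was not tested beyond the centring of arrays. Transcripts with clone or model names only were left out of this search. Among named genes the nearest to Nr4a1 were Barhl1 (0.778) and P2rx6 (0.774), although 1 transcript of the kind left out had an r above 0.8. For Junb the nearest were Camk2d (0.764) and Atp6ap1 (0.753). Fos was nearest to Trip6 (r = 0.765, rho 0.328) and Crisp3 (0.763, rho 0.23). Its rho was far below its r with both.

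**Figure D4:**
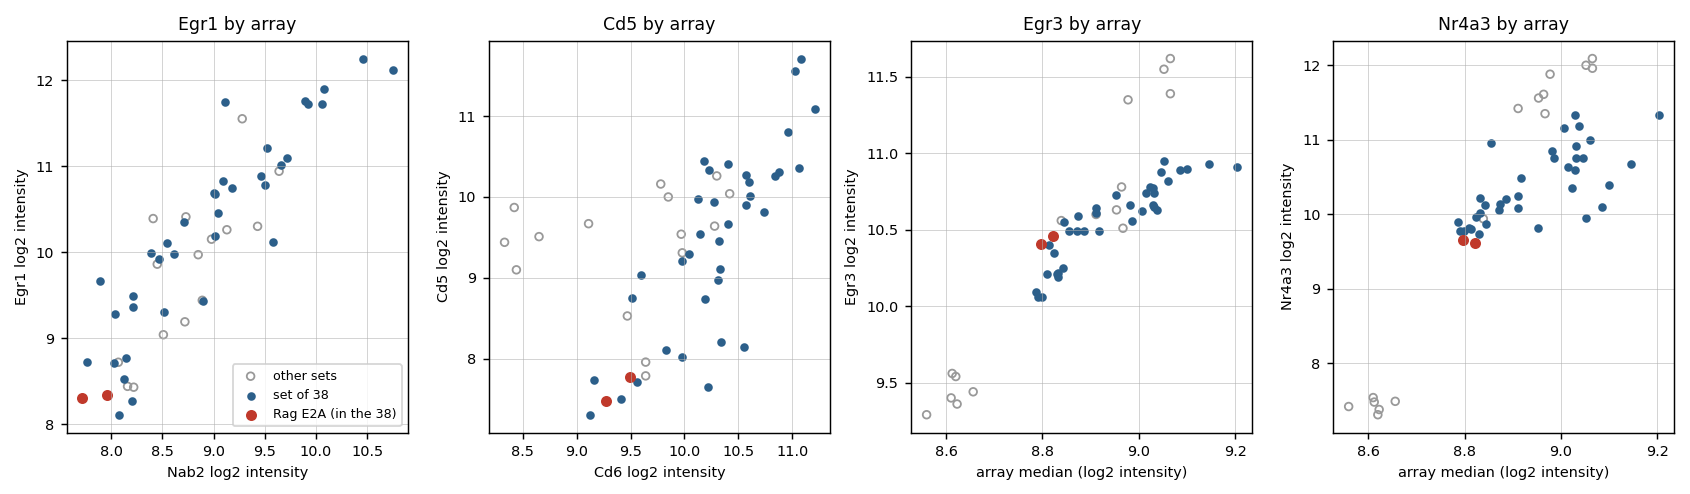
Log2 intensity of Egr1 against Nab2, Cd5 against Cd6, and Egr3 and Nr4a3 against the median log2 intensity of the array; each point is an array, filled for the 38 arrays of the largest set (rag E2A in red) and open for the rest. Over the 38 arrays r is 0.913, 0.824, 0.897 and 0.723 from left to right.

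The genes differed in how they varied over arrays. Among the 28 pairs of the 8 measured genes, over the same 38 arrays, the median Pearson r was 0.433 and 12 pairs exceeded 0.5. The closest were Nr4a1 with Junb (0.741), Egr2 with Cd5 (0.736), Egr1 with Cd5 (0.724) and Egr1 with Egr2 (0.716). Egr3 and Nr4a3 stood apart from Egr1 (0.009 and -0.093), although Egr1 and Egr3 encode related factors. Fos and Junb had an r of 0.622 but a rho of 0.373. Nr4a1 and Nr4a3, each with 4 TGACG copies in the windows printed above, had an r of 0.351.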

How the data were processed

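The authors deposited 1 linear intensity value for each of 22690 probe sets on 53 arrays, and how they normalized these is not stated in the labels. The deposited intensities were put on the log2 scale here. Precision is limited by the number of arrays. Probe sets were named through the platform's gene table (20393 with 1 symbol, 691 with several and 1606 with none used here); where a gene had several, the one of highest mean was used.

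Limma 3.58.1 in R 4.3.3 (lmFit, eBayes) was fitted with 1 mean for each of 15 backgrounds to the 9156 genes that exceeded their array's median on 3 or more arrays. Each background was compared with the unweighted mean of the other 14, and rag E2A with E2A tumours, two-sided, with Benjamini-Hochberg adjustment and a threshold of 0.05. On simulated data with 200 changed genes, the comparison of rag E2A with the others recovered 82.5% of log2 changes of 1 and 98% of changes of 2. The simulated noise was independent across arrays and genes, with no other difference among backgrounds. Cdkn2a replicates are numbered in accession order.

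The members and all gene lists were chosen with earlier results of these data known. All members were named; from each list up to 3 called genes of largest difference in the 2 rag E2A comparisons, and for each member the 2 named genes of highest correlation. Summed marker levels are log2 of summed intensities. Alternatives covered filters, probe-set rules, scaling, an offset, blocks, array sets and left-out arrays; the 9-array set and removal of Cdkn2a tumours were added after the data were seen.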

Additional observations from a re-analysis of the deposited data

Results flagged for a closer look

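In groups of 4 to 10 arrays, single arrays that stood far from the rest of their background were sought for each probe set: 3 of 30 groups had one, where chance gives about 1 in 20. In Cdkn2a tumours replicate 8 was the highest for both Egr2 probe sets, at 7.89 against a next value of 7.27 by one and at 8.96 against 7.93 by the other. In TLX1 tumours replicate 2 was the highest for Nr4a1, at 11.74 against a next value of 10.9. Cdkn2a replicate 8 also had the highest Cd5 (11.09) and Egr1 (10.88) of its background. It is the only tumour of that background whose title names pim1 and ccnd3.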

How the results depend on the processing

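The results that reversed were Egr3 in p53 tumours within the 38 arrays (-0.023, adjusted p = 0.929), where that background is replicate 3 alone, and Egr3 in TLX1 tumours under the array-set block (-0.546, adjusted p = 0.244). In limma's comparison of rag E2A tumours with the others, 65 genes were higher and 110 lower. The counts were 98 higher without a filter, 40 and 56 with the stricter filter (fewer genes tested), 118 higher over single probe sets, 41 lower after quantile normalization, 152 higher after centring, 40 and 55 without Cdkn2a tumours, 195 lower without TLX1 and crossed tumours, and 170 and 521 within the 38 arrays. Counts were 1 and 0 in the set of 9 (1178 genes at an unadjusted p under 0.05) and 0 and 0 in both fits of 2 groups, with equal weight and with background as a random block. The 1 member called lower became 0 under quantile normalization, the offset (adjusted p of Egr1 0.0537), the beta-actin covariate (0.0537), the array-set block, both fits of 2 groups (0.923 and 0.999), the set of 9 and without Cdkn2a tumours (0.0617), 2 without TLX1 and crossed tumours and 3 within the 38 arrays. With the replicate block Egr1 differed by -2.06 (adjusted p = 0.131), members lower were 0, and genes were 13 higher and 18 lower; same-numbered arrays of different backgrounds had a median correlation of deviations of -0.016, so the numbers were not taken to pair them. Leaving out 1 array gave 4 to 108 genes higher, 0 to 232 lower and 0 to 3 members lower, the gene counts being lowest without rag E2A replicate 3 and highest, like the member count, without p53 replicate 3. The Egr1 call was lost in 15 of 53 leave-outs: rag E2A replicates 3 (adjusted p = 0.401) and 4 (0.374), and, at 0.0501 to 0.053, beta-catenin 1 and 3, olig1-LMO1 2, Cdkn2a 3, 4 and 9, LMO1 1 and 2, Nup98HoxD13 3, Pokemon 2, Tal1 2, Tal1-LMO2 3 and crossed 4. Nr4a1 or Nr4a3 became called without p53 3, TLX1 2 or Cdkn2a 6. Against E2A tumours, 0 genes became 1 higher without a filter, 1 lower without TLX1 and crossed tumours or under the array-set block, and 2 higher and 1 lower within the 38 arrays; leave-outs gave 0 to 5 higher and 0 to 6 lower, a lone array being assumed to vary like the rest. Genes differing among backgrounds were 8166, 4956 with the stricter filter and 12820 over single probe sets (8028 to 8379 in leave-outs). Member calls lower were 8 and, under the array-set block, 2 (Junb in TLX1 and p53 tumours, the latter gained), the 4 of the crossed tumours having no value there since they are a set of their own. Both Junb values rest on p53 replicate 3. Member calls lower were 6 to 12 in leave-outs (16 to 21 higher). Of the other values for rag E2A tumours and called pairs, 42 lost and 3 gained a call outside the leave-outs, where 57 lost and 4 gained one. The cause was not tested.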
